A study of Gallus gallus and Anas platyrhynchos and Coturnix japonica with 43 samples.

Results

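Albumin and the plasma carrier proteins are the genes ALB, GC, TTR, RBP4A, RBP4, TF, CP, HPX, AMBP and ORM1. The list was drawn up with earlier results of these data known, and spots were assigned to it by gene symbol alone. Every spot annotated with 1 of these 10 symbols was taken. All 10 were found, on 18 spots that carry 16 cDNA clones, among 6428 genes on the array. The study asked how an array of chicken cDNA clones reads tissues of chicken and of other birds. Each of 43 arrays received Cy3-labelled cDNA of 1 tissue sample and a Cy5-labelled common reference, a pool of chicken RNA from liver, hypothalamus, breast muscle and abdominal fat whose labelled cDNA was combined anew for each hybridisation set. The values are log2 ratios of a spot to that pool, likely sample over reference, centred on the median over all spots of each array. A value of 0 thus means the same ratio to the pool as the median spot of that array, and not an absolute amount.

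The livers came from Tree sparrow and American kestrel (3 arrays each) and from duck, Japanese quail and White turkey (4 arrays each). Hypothalamus was measured in duck, quail and turkey (3 arrays each), and for the birds other than chicken no age or sex was used here. Chicken liver, breast muscle and abdominal fat (4 arrays each) came from Ross x Cobb broiler cockerels of 6 weeks, and chicken hypothalamus (4 arrays) from 9-week-old males of a lean line. Muscle and fat RNA was prepared with guanidine thiocyanate and caesium chloride, the other RNA with RNeasy, so for chicken muscle and fat the tissue cannot be told apart from the extraction, and for chicken hypothalamus it cannot be told apart from line and age. Whether every array stands for its own bird is not stated in the labels, so p-values measure the spread between these arrays. Spot intensities were not used here, and precision is limited by the 3 or 4 arrays of a group.

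Across the series, arrays of a group correlated at a median of 0.29 over 57 pairs (from -0.17 to 0.63). A further fit left out 3 arrays that went against the markers of their label. The contractile median over 22 genes was 1.20 on sparrow liver replicate 1 against -1.59 and -0.89 on the other sparrow livers, and -1.08 on chicken muscle replicate 4 against 0.88 to 1.04 on the other muscle arrays. The neuronal median over 20 genes was -0.63 on duck hypothalamus replicate 3 against 0.33 and -0.06 on the other duck hypothalami. On sparrow liver replicate 1, ALB (-2.99), GC (-2.06), TTR (-1.74) and RBP4A (-1.83) were each the lowest of the 3 sparrow arrays, HPX (-0.38) and CP (-0.01) the highest, and TF, RBP4, ORM1 and AMBP lay between the other two. In the 8 contrasts with a called carrier, the same carriers were called without these 3 arrays. Of these contrasts, only chicken liver against the other chicken tissues and sparrow liver against chicken liver use any of the 3 arrays. In the others the differences stayed as they were, and only the shared estimate of the spread and the adjustment could move. That fit kept a turkey hypothalamus array with a neuronal median of -0.20, where the group median was 0.46. It also kept a quail liver array with a neuronal median of 0.26, where the group median was -0.65. The marker lists of the labelled tissues otherwise stood where the labels put them in chicken, with median log2 ratios of 0.40 for liver enzymes in liver, 0.92 for contractile genes in muscle, 0.59 for neuronal genes in hypothalamus and 0.58 for adipocyte genes in fat.

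Most of these proteins are made by hepatocytes and secreted into blood. Albumin carries fatty acids, hormones and metals, and the others bind a narrower set of ligands: vitamin D, thyroid hormone, retinol, iron, copper or haem. In mammals TTR is also made by the choroid plexus of the brain, and in birds the TF gene gives both the transferrin of serum and the ovotransferrin of egg white.

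In chicken, 8 of the 10 carriers were higher in liver than in the mean of hypothalamus, muscle and fat at an adjusted p under 0.05 (limma, Benjamini-Hochberg over all genes), where 1.88% of the 6428 genes were called higher. These were ALB, GC, TTR, RBP4A, TF, HPX, AMBP and ORM1, and their differences ran from 1.40 for HPX to 3.09 for ALB on the log2 scale. CP and RBP4 did not pass. The median difference over the 10 was 2.58, against -0.01 over all genes. In whole tissue, more cells that make a transcript and more transcript per cell cannot be told apart.

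ALB had log2 ratios of 0.83, 1.06, 0.94 and 0.43 in chicken liver. It had -1.75, -2.28, -2.53 and -3.41 in chicken hypothalamus, -2.87, -2.93, -1.55 and -1.76 in muscle, and -2.16, -1.76, -2.77 and -1.45 in fat. Every liver array lay above every array of the other 3 tissues. The difference was 3.09 (SE 0.34), an 8.49-fold higher ratio with an adjusted p of 6.39e-08. It ranked 6 of the 6428 genes, ordered from the highest to the lowest signed difference. In the other birds' livers ALB was -2.99, -0.90 and -1.43 in sparrow, -1.71, -2.06 and -2.40 in kestrel, and -1.28, -0.85, -0.995 and -1.31 in duck. It was -1.01, 0.51, -0.81 and -0.24 in quail liver and 0.13, -0.24, -0.83 and -1.14 in turkey liver. Duck, kestrel and sparrow livers were thus below every chicken liver array, turkey liver was too, and quail liver overlapped it in 1 array. The turkey difference from chicken liver, -1.34, was not called (limma adjusted p = 0.375). For this gene and the carriers below, how many of all genes showed no such overlap was not counted. Their hypothalami held -1.90, -2.12 and -0.87 (duck), -1.85, -2.01 and -1.95 (quail), and -1.28, -2.79 and -2.10 (turkey). By mean, ALB was highest in chicken liver, then in quail, turkey and duck liver, and the remaining 8 groups lay between -1.63 and -2.49. Arrays of neighbouring groups overlapped at every step of that order.

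**Figure D1:**
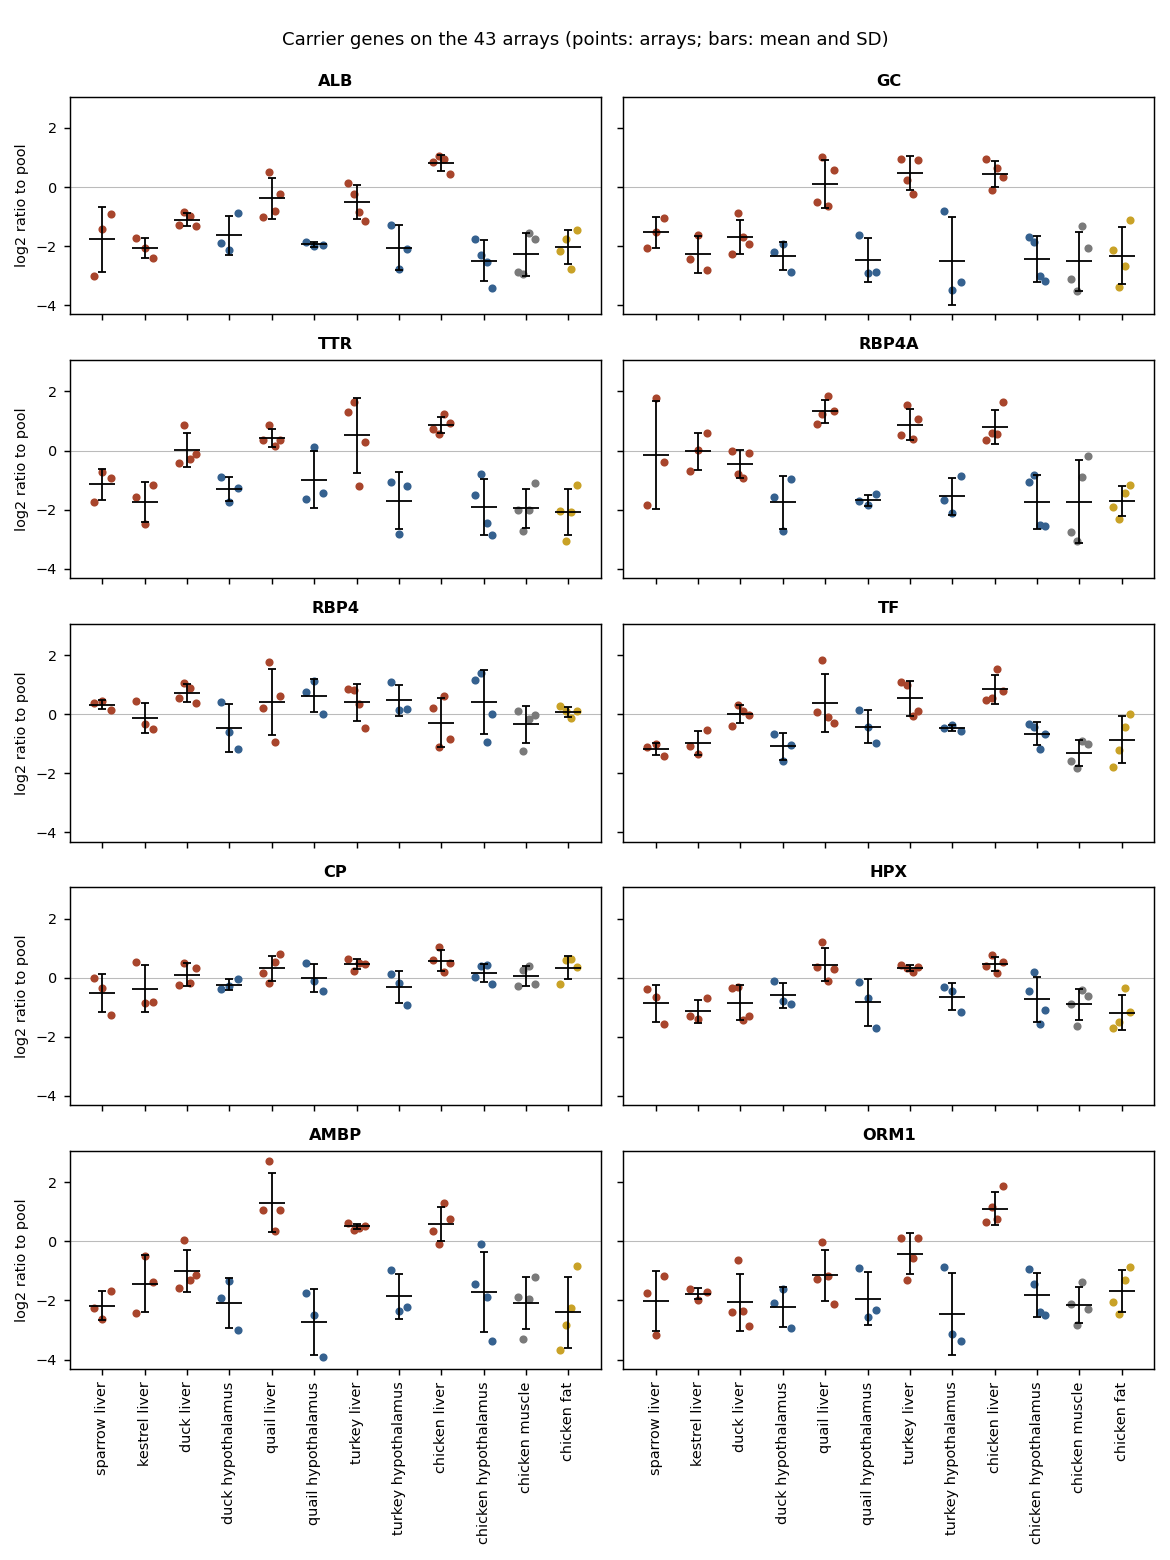
Log2 ratio to the chicken reference pool (vertical axis, array median at 0) of each carrier gene in the 12 groups (horizontal axis); points are single arrays and bars the mean and SD over 3 or 4 arrays. Chicken, turkey and quail livers have the 3 highest means for every carrier but CP and RBP4. Chicken liver does not overlap the next group for ORM1, and the group means of CP and RBP4 stay between -0.53 and 0.71.

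GC, the vitamin D binding protein and a relative of albumin, was 0.94, -0.12, 0.63 and 0.34 in chicken liver. It was 0.94, 0.25, -0.23 and 0.91 in turkey liver and -0.52, 1.01, -0.65 and 0.56 in quail liver. No array outside liver reached these values: the highest was -0.81, in turkey hypothalamus, and the lowest -3.52, in chicken muscle. Duck liver held -2.27, -0.88, -1.69 and -1.91, kestrel liver -2.42, -1.61 and -2.81, and sparrow liver -2.06, -1.03 and -1.51. The only step in the order of the 12 means at which arrays did not overlap lay between quail liver and sparrow liver. In chicken the difference of liver from the other tissues was 2.87 (SE 0.43, adjusted p = 2.03e-05).

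TTR, which carries thyroid hormone and the retinol-binding protein, was 0.74, 0.57, 1.23 and 0.92 in chicken liver. The other chicken tissues ran from -3.07 to -0.80, and the difference was 2.85 (SE 0.41, adjusted p = 1.44e-05). Chicken hypothalamus, with -1.51, -0.80, -2.47 and -2.87, was not set apart from muscle and fat: the difference was 0.11 (SE 0.44, 95% interval -0.78 to 0.99). Choroid plexus and ependyma markers had a median between -0.15 and 0.32 on those 4 arrays over 6 measured genes. Turkey liver was spread widely for TTR, at 1.30, 1.64, -1.18 and 0.29. Quail liver held 0.34, 0.86, 0.16 and 0.36, and duck liver -0.40, 0.88, -0.27 and -0.10. These 3 livers overlapped chicken liver, which kestrel liver, at -1.56, -2.48 and -1.16, and sparrow liver, at -1.74, -0.94 and -0.74, did not. Quail hypothalamus replicate 2, at 0.12, was the highest array outside liver.

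RBP4A, the plasma retinol-binding protein of chicken, which the current gene table also lists as RBP and RBP4, was 0.37, 0.58, 0.55 and 1.64 in chicken liver. It was 0.91, 1.23, 1.85 and 1.33 in quail liver and 0.53, 1.53, 0.40 and 1.06 in turkey liver, all above the highest array outside liver, which was chicken muscle replicate 4 at -0.19, an array whose markers go against its label. The difference of chicken liver from the other chicken tissues was 2.51 (SE 0.45, adjusted p = 0.00036). RBP4A averaged -0.15 ± 1.82 in sparrow liver, -0.03 ± 0.64 in kestrel liver (SD, n = 3 each) and -0.45 ± 0.48 in duck liver (SD, n = 4), and no mean outside liver was above -1.55. The sparrow mean stands for arrays at -1.83, -0.38 and 1.78, so it does not describe any of them. RBP4 is a separate entry of the current gene table, which also lists it as RBP4B. The annotation of the array is older than that table, so whether the spot annotated RBP4 reads this gene or RBP4A was not settled. The RBP4 spot had 0.19, -1.11, 0.62 and -0.84 in chicken liver. Its 12 group means spanned 1.17, from -0.46 in duck hypothalamus to 0.71 in duck liver, and the difference of chicken liver from the other tissues was -0.33 (95% interval -1.11 to 0.45).

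The differences of chicken liver from the other chicken tissues ran from 0.40 to 1.78 for the metal and haem carriers. For TF and HPX these gene values average clones that were called higher in chicken liver with clones that were not, as given below. TF, the iron carrier, was 0.49, 0.54, 1.53 and 0.80 in chicken liver, above all arrays of the other chicken tissues, which ran from -1.81 to 0.01. Its difference was 1.78 (SE 0.31, adjusted p = 0.00024). In the other livers TF was -1.11, -1.42 and -1.02 in sparrow, -1.08, -1.33 and -0.54 in kestrel, -0.41, 0.32, 0.12 and -0.02 in duck, 0.07, 1.82, -0.10 and -0.30 in quail and 1.10, 0.99, -0.06 and 0.10 in turkey. Sparrow, kestrel and duck livers lay below all chicken livers, while quail and turkey livers each had an array above 1. The duck difference from chicken liver, -0.84, was not called (adjusted p = 0.581). HPX, hemopexin, which binds free haem, was 0.41, 0.77, 0.16 and 0.52 in chicken liver, and 1 hypothalamus array, at 0.19, lay within that range. The difference for HPX was 1.40 (SE 0.31, adjusted p = 0.00514). HPX in turkey liver was 0.43, 0.34, 0.18 and 0.35 and in quail liver 0.36, 1.21, -0.12 and 0.28, both within reach of chicken liver. Duck liver, at -0.34, -0.30, -1.43 and -1.29, kestrel liver, at -1.30, -1.41 and -0.68, and sparrow liver, at -0.38, -1.58 and -0.64, lay below it. Of these, duck (-1.31, adjusted p = 0.104) and sparrow (-1.33, adjusted p = 0.145) were not called against chicken liver. CP, the copper-binding ferroxidase ceruloplasmin, was 0.59, 1.05, 0.20 and 0.50 in chicken liver and overlapped the other tissues. Its difference was 0.40 (95% interval -0.13 to 0.93), and its 12 group means ran from -0.53 in sparrow liver to 0.58 in chicken liver.

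ORM1, an orosomucoid that binds small lipophilic molecules and is an acute phase protein in mammals, was 0.66, 1.17, 0.74 and 1.88 in chicken liver. That group did not overlap the next in order, turkey liver, at 0.11, -1.32, -0.56 and 0.12. Quail liver held -1.28, -0.02, -1.17 and -2.11, duck liver -2.38, -0.64, -2.37 and -2.88, kestrel liver -1.60, -1.99 and -1.71, and sparrow liver -1.76, -1.17 and -3.16. In chicken the difference of liver from the other tissues was 2.99 (SE 0.44, adjusted p = 1.54e-05). AMBP, the precursor of alpha-1-microglobulin and bikunin, had its highest mean in quail liver, at 1.05, 2.72, 0.37 and 1.07. Chicken liver held 0.34, -0.07, 1.29 and 0.77, and turkey liver the narrow set 0.62, 0.40, 0.46 and 0.53. The highest array outside liver was chicken hypothalamus replicate 2 at -0.10. AMBP was at -2.24, -1.67 and -2.62 in sparrow liver, -2.44, -0.48 and -1.37 in kestrel liver and -1.59, 0.04, -1.30 and -1.15 in duck liver, so of these only 1 duck array reached the range of chicken liver. In chicken the AMBP difference was 2.65 (SE 0.48, adjusted p = 0.000412). In the order of the 12 means, arrays of neighbouring groups did not overlap at the step below chicken liver for ORM1 and at the step below turkey liver for AMBP and HPX, and they overlapped at all other steps for these 3 genes and at all steps for TTR, RBP4A, RBP4, TF and CP.

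Where a gene had several clones, they did not always read alike. The 2 ALB clones correlated at 0.61 over the 43 arrays and both were higher in chicken liver than in the other chicken tissues, by 2.24 (SE 0.48, adjusted p over 18547 clones 0.0026) and 3.93 (SE 0.39, adjusted p = 1.2e-09), where 1.71% of clones were called. Both TTR clones were called too, at 2.21 and 3.48. For TF, clones 1 and 3 correlated at 0.78 and were higher in chicken liver by 3.21 (adjusted p = 3.6e-05) and 2.19 (adjusted p = 0.0013). TF clone 2 gave -0.04 and its own 2 spots correlated at -0.16. For HPX, clone 2 gave 2.41 (adjusted p = 1e-05) and clone 1 gave 0.39, and the 2 clones correlated at 0.15. The CP clones correlated at 0.04 and gave 0.02 and 0.78, neither of them called. The gene values of TF and HPX average clones that were called with clones that were not. With the single clone of smallest residual SD, TF gave -0.04 in place of 1.78. These correlations are descriptions over arrays that share groups and the reference pool.

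**Figure D2:**
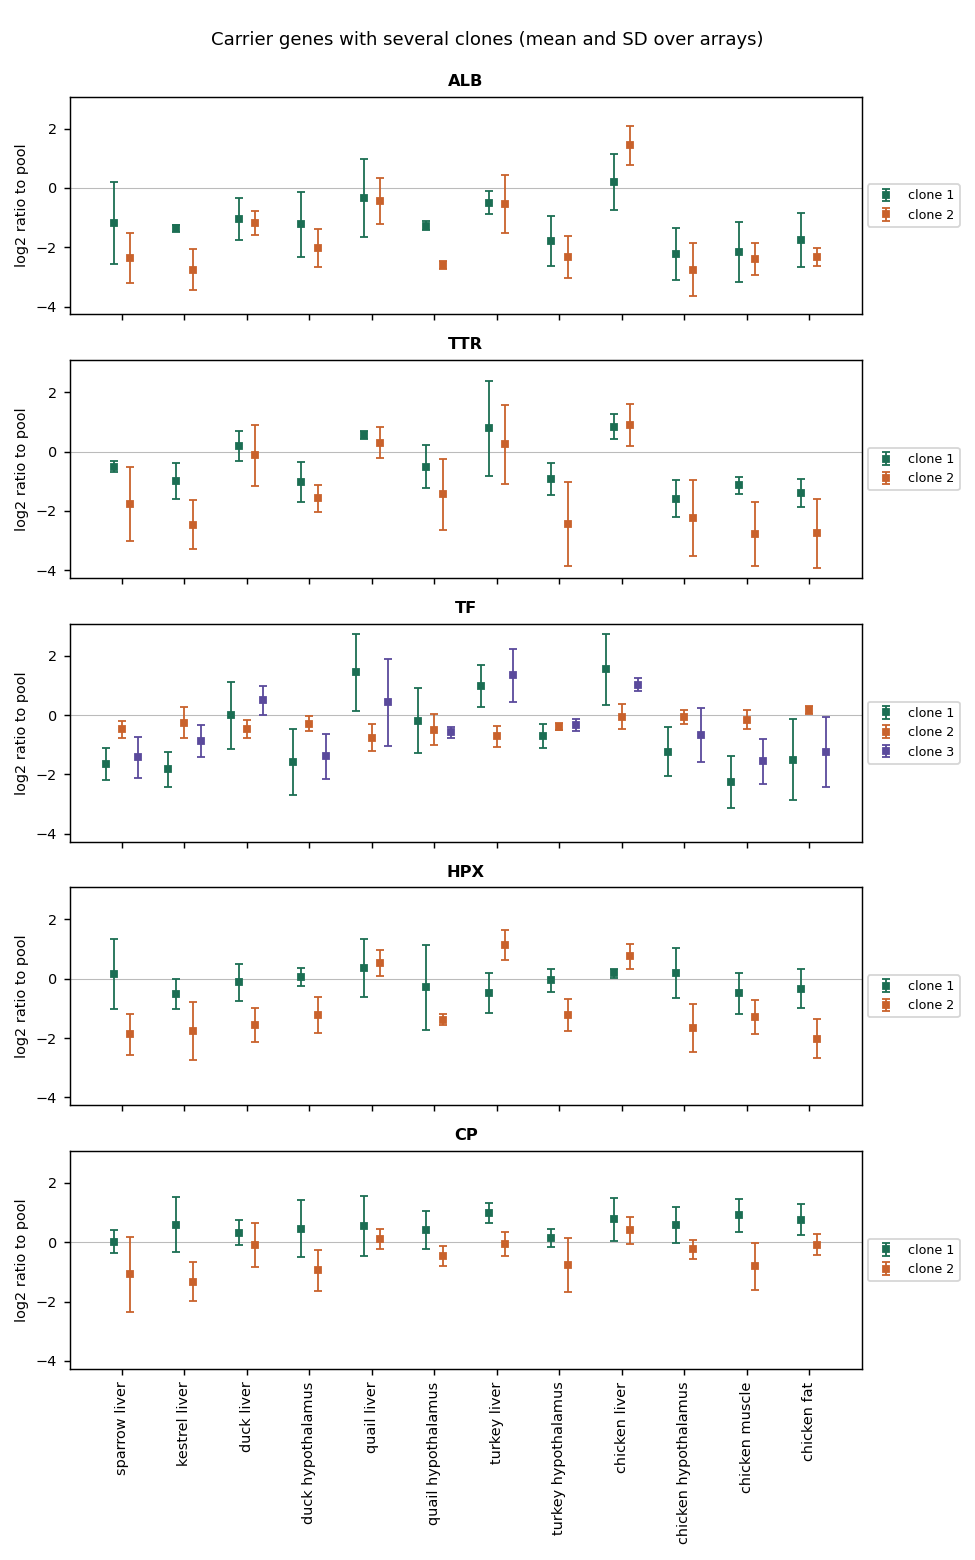
Log2 ratio to the reference pool (vertical axis) of each clone of the carriers with several clones, as mean and SD over the 3 or 4 arrays of each of the 12 groups (horizontal axis). The means of TF clone 2 stay between -0.77 and 0.17 and those of HPX clone 1 between -0.51 and 0.35, while those of TF clone 1 run from -2.26 to 1.55 and those of HPX clone 2 from -2.02 to 1.13.

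Liver was next compared with hypothalamus within each of 4 birds. GC and RBP4A were called higher in liver in chicken, turkey and quail. The count of carriers called higher was 3 in quail (0.498% of all genes), 3 in turkey (0.513%) and 7 in chicken (1.14%). In duck, 0 of 10 carriers and 0 of 6428 genes were called (0%), while 4 carriers and 347 genes (5.40%) had an unadjusted p under 0.05. The median difference over the carriers was 0.87 in duck, 1.34 in quail, 1.79 in turkey and 2.41 in chicken, against -0.0029 in duck, -0.03 in quail and -0.01 in turkey and in chicken over all genes. The clones are of chicken cDNA. Whether a weaker match of other birds' cDNA, or values near the lower limit of detection, made these differences smaller was not tested. With every array scaled to the same median absolute deviation, the counts in quail and turkey were 0 each and that in chicken was 8. How many of all genes were called with that scaling, or with an array left out as given below, was not counted.

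In quail, AMBP had the largest difference in the direction of liver of all 6428 genes, 4.03 (SE 0.64, adjusted p = 0.000307). Its arrays were at 1.05, 2.72, 0.37 and 1.07 in liver and at -1.76, -2.50 and -3.93 in hypothalamus. Among the carriers RBP4A was next, at 3.01 (SE 0.60, adjusted p = 0.00569), and then GC, at 2.58 (SE 0.57, adjusted p = 0.0138). ALB in quail was at 1.55 (adjusted p = 0.13). Its arrays did not overlap between the tissues, and how many of all genes showed no such overlap was not counted. Among the clones, ALB clone 2 passed in quail at 2.16 (adjusted p = 0.028) and HPX clone 2 at 1.90 (adjusted p = 0.045), with 0.55% of clones called. Without quail hypothalamus replicate 2, 1 carrier passed.

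In turkey, GC differed by 2.97 (SE 0.57, adjusted p = 0.0023), with liver at 0.94, 0.25, -0.23 and 0.91 against hypothalamus at -0.81, -3.49 and -3.21. RBP4A differed by 2.43 and TTR by 2.20, both with an adjusted p of 0.0405. The TTR arrays overlapped: turkey liver replicate 3, at -1.18, lay below turkey hypothalamus replicate 1, at -1.07. AMBP, at 2.36, had an adjusted p of 0.0772, and ORM1, at 2.04, one of 0.105. With the replicate number of turkey as a block, GC kept its call (2.82, adjusted p = 0.00492), while TTR (2.28) and RBP4A (2.37) had adjusted p-values of 0.0603 and 0.122. Of 6428 genes, 36 were called in either direction with that block, against 44 without it. Without turkey hypothalamus replicate 2, 0 carriers passed, and without turkey liver replicate 1, 2 or 4, 1 passed. HPX clone 2 was called at 2.36 (adjusted p = 0.0051), with 0.566% of clones called.

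In chicken, the liver minus hypothalamus difference was 3.31 for ALB, 2.92 for ORM1, 2.88 for GC, 2.77 for TTR and 2.53 for RBP4A, with adjusted p-values from 1.91e-06 to 0.00643. AMBP (2.29) and TF (1.50) passed with adjusted p-values of 0.0312 and 0.0308, and HPX (1.20) had one of 0.134. The count was 4 without chicken hypothalamus replicate 4 and 4 without chicken liver replicate 4.

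In duck the differences were 0.52 for ALB (95% interval -0.39 to 1.43), 0.65 for GC and 0.15 for ORM1. Without the 3 arrays that went against their labels, of which duck hypothalamus replicate 3 is in this contrast, they were 0.90 for ALB, 0.39 for GC and -0.21 for ORM1, which changed sign. AMBP, at 1.09 over all arrays, was then 0.63. TTR (1.32), RBP4A (1.30) and TF (1.09) were not called. Their arrays did not overlap between duck liver and duck hypothalamus, for RBP4A narrowly (lowest liver -0.93, highest hypothalamus -0.96). How many of all genes showed no such overlap was not counted. RBP4 was the only carrier whose difference was above 0 in duck (1.17) and below 0 in quail, turkey and chicken, and it was called in none of them. The difference of duck from chicken in this contrast was -2.79 for ALB (SE 0.62, adjusted p = 0.115), -2.77 for ORM1 (adjusted p = 0.475) and -2.23 for GC (adjusted p = 0.672). Without the 3 arrays that went against their labels it was -2.41 for ALB (adjusted p = 0.298), -3.14 for ORM1 (adjusted p = 0.501) and -2.49 for GC (adjusted p = 0.9997). The part of the match of duck cDNA to chicken clones in these differences was not tested. No carrier passed this test of the difference in any bird, at 0.0311% of genes called for duck, 0.0156% for quail and 0% for turkey, and 5, 2 and 1 carriers had an unadjusted p under 0.05 in duck, quail and turkey, where 5.71%, 5.35% and 1.71% of all genes had one. ALB clone 2 passed it for duck at -3.34 (SE 0.70, adjusted p = 0.034, 0.0593% of clones called), and leaving out chicken hypothalamus replicate 1 gave 1 call at gene level.

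**Figure D3:**
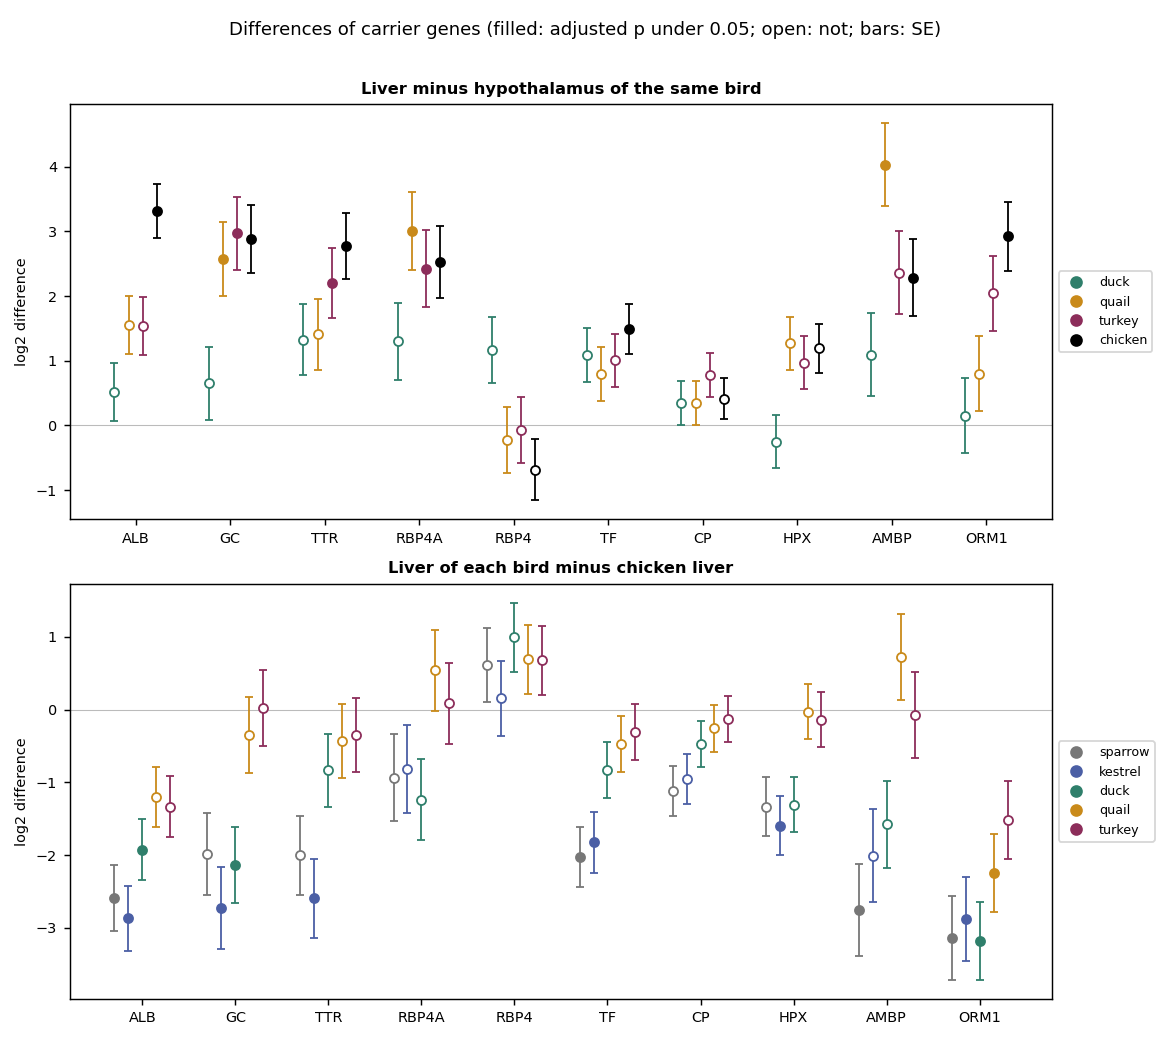
Log2 differences of the carrier genes (vertical axes; bars are SE), for liver minus hypothalamus within duck, quail, turkey and chicken (upper panel) and for each bird's liver minus chicken liver (lower panel); filled points have an adjusted p under 0.05. In the upper panel GC and RBP4A are filled in 3 birds and duck has no filled point; in the lower panel ORM1 is filled in 4 birds and turkey has no filled point.

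Against chicken liver, the other birds' livers were then compared. These comparisons share the same chicken arrays, and a weaker match of another bird's cDNA to a chicken clone cannot be told apart from less transcript. Carriers called lower numbered 4 in sparrow (0.793% of genes called lower), 6 in kestrel (1.18%), 3 in duck (0.762%), 1 in quail (0.498%) and 0 in turkey (0.0467%, with 2 carriers and 5.16% of all genes at an unadjusted p under 0.05). No carrier was called higher in any of them. The median difference over the carriers was -1.99 in sparrow, -1.92 in kestrel, -1.27 in duck, -0.30 in quail and -0.13 in turkey, and that over all genes stayed between -0.03 and 0.03. The sparrow median includes replicate 1, whose markers went against its label. It was not recomputed without that array, so sparrow and kestrel are not ordered by it.

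ORM1 was lower in 4 of these livers, with a difference of -3.14 in sparrow (SE 0.58, adjusted p = 0.00213), -2.88 in kestrel (SE 0.58, adjusted p = 0.00444), -3.18 in duck (SE 0.54, adjusted p = 0.00104) and -2.25 in quail (SE 0.54, adjusted p = 0.0387). The quail call was lost without any 1 of the chicken livers and without quail liver replicate 1, 3 or 4. Turkey liver differed by -1.52 (adjusted p = 0.578). Its arrays did not overlap those of chicken liver, and how many of all genes showed no such overlap was not counted. ALB was lower in sparrow (-2.59, adjusted p = 0.00109), kestrel (-2.87, adjusted p = 0.000261) and duck (-1.92, adjusted p = 0.0126). ALB clone 2 was called in the same livers, at -3.80 in sparrow, -4.19 in kestrel and -2.61 in duck, and ALB clone 1 in none (1.32% of clones called in kestrel, 0.981% in duck and 0.841% in sparrow). Without the 3 arrays that went against their labels, the ALB gene difference in sparrow was -1.98 (adjusted p = 0.0193).

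GC was lower in kestrel (-2.73, adjusted p = 0.00595) and duck (-2.13, adjusted p = 0.0356) and stood at 0.02 in turkey (95% interval -1.04 to 1.08). TTR was lower in kestrel (-2.59, adjusted p = 0.0062). TF was lower in sparrow (-2.02, adjusted p = 0.00615) and kestrel (-1.82, adjusted p = 0.0133), HPX in kestrel (-1.59, adjusted p = 0.0378) and AMBP in sparrow (-2.76, adjusted p = 0.0185). HPX clone 2, averaged with clone 1 in the gene value, was called lower in sparrow (-2.63, adjusted p = 0.00075), kestrel (-2.50, adjusted p = 0.0016) and duck (-2.31, adjusted p = 0.0027), and HPX clone 1 in none. TF clone 1 was called lower in sparrow (-3.20) and kestrel (-3.38), TF clone 3 in sparrow (-2.45) and TTR clone 2 in kestrel (-3.35). RBP4A passed in none: it differed by -0.93 in sparrow, -0.82 in kestrel, -1.24 in duck, 0.54 in quail and 0.09 in turkey, and the sparrow interval ran from -2.15 to 0.28. Without the 3 arrays that went against their labels, sparrow liver replicate 1 among them, the RBP4A difference in sparrow was -0.09. The AMBP difference in sparrow was then -2.72 (adjusted p = 0.0464) and that of TF -2.06 (adjusted p = 0.0207). Over all arrays, RBP4 and CP passed in none of these livers either. Without kestrel liver replicate 2 the kestrel count was 3, without sparrow liver replicate 3 the sparrow count was 2, and without duck liver replicate 4 the duck count was 1. The median of 16 measured liver enzymes ran from -0.32 to 0.12 in sparrow, -0.45 to -0.17 in kestrel, -0.05 to 0.38 in duck, 0.08 to 0.73 in quail and 0.47 to 0.62 in turkey liver, against 0.17 to 0.55 in chicken liver. The part of these enzymes' level in the differences of the carriers was not tested. With every array scaled to the same median absolute deviation, the counts were 2 in sparrow, 1 in kestrel, 1 in duck and 0 in quail. How many of all genes were called with that scaling or with an array left out was not counted.

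In hypothalamus, the carriers of duck, quail and turkey were not separated from those of chicken. Called carriers numbered 0 in each (0.327% of genes called in duck, 0.0467% in quail and 0.14% in turkey), and 0 had an unadjusted p under 0.05. Spot intensities were not used, so whether low carrier values in hypothalamus lay near the lower limit of detection was not tested. Near such a limit a difference between birds could hardly show. The largest differences from chicken were -1.03 for AMBP in quail (95% interval -2.32 to 0.27), 0.93 for TTR in quail and 0.87 for ALB in duck. The ALB difference in duck was 0.49 without the 3 arrays that went against their labels. Within chicken, 0 carriers were called between hypothalamus and the mean of muscle and fat (0.311% of genes) or between fat and the mean of hypothalamus and muscle (0.965%), and 0 had an unadjusted p under 0.05. RBP4A, which is known as an adipocyte product in mammals under the name RBP4, differed by 0.03 in fat (95% interval -0.95 to 1.00), and by 0.28 without those arrays.

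Other genes of plasma and of the carriers' ligands were read from lists chosen by function, with earlier results of these data known. Of 36 other measured plasma proteins, 18 rose and 0 fell in chicken liver against the other chicken tissues, with a median of 1.15. In that contrast 1.88% of all genes were called higher. Against chicken liver, 9 of the 36 fell in sparrow liver (0.793% of all genes called lower), 9 in kestrel (1.18%) and 3 in duck (0.762%). In quail 1 fell (0.498%) and in turkey 0 (0.0467%), and 0 rose in these birds. In turkey 2 of the 36 had an unadjusted p under 0.05, where 5.16% of all genes did. For these genes and those below too, a weaker match of another bird's cDNA cannot be told apart from less transcript. Of 17 iron and haem genes, STEAP3, a ferrireductase of the transferrin cycle, was called in chicken liver (3.23, SE 0.28, adjusted p = 2.85e-10) and in turkey liver minus hypothalamus (2.93). It was lower than in chicken liver in sparrow (-2.63), kestrel (-3.18), duck (-2.91) and quail (-2.20), and its liver minus hypothalamus difference was smaller than that of chicken in duck (-3.26, adjusted p = 0.000864) and quail (-2.84, adjusted p = 0.0121). The other 16 of that list were not called in chicken liver against the other tissues.

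Of 14 retinoid genes, 0 were called in chicken liver against the other tissues (3 at an unadjusted p under 0.05, where 6.78% of all genes were), while RETSAT, a retinol saturase (3.07, adjusted p = 1.4e-05), and BCO2, a carotenoid oxygenase (1.79, adjusted p = 0.013), rose in chicken fat against hypothalamus and muscle. In that fat contrast 0.965% of all genes were called in either direction. Of 10 vitamin D and thyroid hormone genes, THRSP, a thyroid hormone responsive gene of lipid synthesis, rose in chicken fat (1.64, adjusted p = 0.00296) and in chicken liver against hypothalamus (1.48, adjusted p = 0.0284). DIO2, an enzyme that activates thyroid hormone, fell in duck liver against chicken liver (-1.29, adjusted p = 0.0471). Of 7 copper genes, 0 were called in any of the 18 contrasts, and at most 2 in a contrast had an unadjusted p under 0.05. The 1 further call on the iron and haem list was PGRMC1, a haem-binding membrane protein, in chicken fat (0.87, adjusted p = 0.0328).

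The genes whose log2 ratios followed ALB most closely over the 43 arrays were PLG, plasminogen (Pearson r 0.92), SPINK5, a protease inhibitor (0.87), HPD, an enzyme of tyrosine breakdown (0.86), GC (0.85) and FGA, the fibrinogen alpha chain (0.85). Over the 12 group means the same genes had r of 0.96, 0.92, 0.93, 0.92 and 0.95. The other carriers had r with ALB over the arrays of 0.83 for TTR, 0.75 for TF, 0.74 for AMBP, 0.73 for RBP4A, 0.71 for ORM1, 0.63 for HPX, 0.38 for CP and 0.13 for RBP4. The arrays share the reference pool and fall into tissues and birds, so these values describe the likeness of profiles and carry no test.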

How the data were processed

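The authors deposited 1 linear ratio per spot and array, read here as sample over reference because liver enzymes, contractile, neuronal and adipocyte genes lay above 0 in their own chicken tissues; carriers were not used for this. The numerator, the normalization and the genome build are not stated in the sources used here, and no array had its dyes swapped. The lowest correlation between 2 arrays was -0.397, and 0 of the 12 pairs under -0.3 (of 903) were within a tissue. All 19200 spots held a ratio above 0, and array medians ran from 0.535 to 1.83. Of the spots, 10601 carried 1 gene symbol, 0 several and 8599 none, and 10455 of the named ones matched the RefSeq gene table of GRCg7b, which was used for names only.

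Ratios were put on the log2 scale and centred per array. Spots of a clone were averaged to 18547 clones and clones to 6428 genes. In R 4.3.3, limma 3.58.1 estimated the mean of each of the 12 groups from all 43 arrays, tested 18 contrasts with Benjamini-Hochberg adjustment over all genes (or clones) of each, and called genes at an adjusted p under 0.05. The fit was tested on simulated data. Plots and summaries used Python 3.11.15 with pandas 2.3.3, numpy 2.4.6 and matplotlib 3.10.9. Named were all 10 carriers, called genes of the ligand lists (at most 5 per list and contrast) and the 5 genes most like ALB. The members and lists were chosen with earlier results of these data known.

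Same-numbered turkey liver and hypothalamus arrays deviated together (r = 0.58, 0.26 and 0.33), so the replicate number was also fitted as a block in turkey. In quail, duck and chicken at least 1 pair had an r under 0.1, and in chicken the same-numbered pairs ran from -0.58 to -0.03. Pairs of different number ran from -0.44 to 0.49 in chicken and from -0.60 to 0.64 in quail. Shared deviations between arrays thus did not follow the replicate number in these birds. The main fit treated all arrays as independent, so its p-values take no account of such shared deviations. Quail hypothalamus replicate 3, which has the number 19 in its description, was numbered by its title. Other settings tried were centring, scaling, quantile normalisation, print blocks, the choice of clones, array weights, the groups fitted, the threshold and each array left out.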

Additional observations from a re-analysis of the deposited data

Results flagged for a closer look

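RBP4A on chicken liver replicate 4 had a log2 ratio of 1.6446, against 0.3725 to 0.5806 on the other 3 chicken livers, and its distance from the nearest of them was 0.836 of the group's range. It was the only far array among 70 combinations of a carrier and a group of 4 arrays, where chance gives about 5%. RBP4A was called in chicken liver against the other tissues with each array left out in turn.

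ALB clone 2 differed between duck and chicken in its liver minus hypothalamus difference by -3.3406 (limma interaction term over 18547 clones, SE 0.70, adjusted p = 0.034). In duck liver the clone had -0.78, -1.60, -0.87 and -1.44, against 1.74, 1.86, 0.46 and 1.69 in chicken liver. In hypothalamus it had -1.61, -2.77 and -1.70 in duck, against -2.20, -1.81, -3.36 and -3.65 in chicken. ALB clone 1, which was not called, had means of -1.04 in duck liver and -1.23 in duck hypothalamus. Its means in chicken were 0.19 in liver and -2.23 in hypothalamus. ALB averaged over both clones gave -2.79 with an adjusted p of 0.115. In hypothalamus the ALB gene differed by 0.87 between duck and chicken (95% interval -0.05 to 1.78). The cause was not tested.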

How the results depend on the processing

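Counts of called carriers are given as the reported count and then the count under the other setting. Except for the replicate block within turkey, how many of all genes were called under the other settings was not counted. A changed count of carriers thus cannot be told apart from a change in all calls. Chicken liver against the other chicken tissues (8) was 4 among genes with at least 2 clones, of which 5 were carriers, and 8 with any 1 array left out. Chicken liver minus hypothalamus (7) was 3 with at least 2 clones and 4 to 8 with 1 array left out. Turkey liver minus hypothalamus (3) was 0 with arrays scaled to equal median absolute deviation, 5 with print blocks centred, 1 with at least 2 clones, 1 at an adjusted p under 0.01, 1 with the replicate block within turkey, which was chosen after seeing the data, and 0 to 3 with 1 array left out. Quail liver minus hypothalamus (3) was 0 with equal deviation, 5 with the clone of smallest residual SD, 5 with array weights, 0 with at least 2 clones and 1 to 3 with 1 array left out. Duck liver minus hypothalamus (0) was 2 with array weights and 0 with any 1 array left out.

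Against chicken liver, turkey (0) was 1 with the clone of smallest residual SD and 0 with any array left out. Quail (1) was 0 with equal deviation, with only the groups compared, with at least 2 clones and at 0.01, 2 with the clone of smallest residual SD, and 0 to 1 with 1 array left out. Duck (3) was 1 with equal deviation, 1 with at least 2 clones, 1 at 0.01 and 1 to 3 with 1 array left out. Kestrel (6) was 1 with equal deviation and 3 to 5 with 1 array left out. Sparrow (4) was 2 with equal deviation, 7 with quantile normalisation and 2 to 4 with 1 array left out. Quail hypothalamus against chicken hypothalamus (0) was 1 with array weights. The difference from chicken in liver minus hypothalamus (0) was 2 for quail with array weights, and for duck 1 with quantile normalisation, 1 with the clone of smallest residual SD, 1 with only the groups compared, 3 with array weights and 0 to 1 with 1 array left out. The other contrasts with a count of 0 stayed at 0 with any 1 array left out.

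Of 731 recomputed differences of single called carriers, 627 kept their direction and call, 103 kept their direction without passing and 1 reversed: TF in chicken liver, -0.0436 with the clone of smallest residual SD, whose TF clone is the one not called. With the replicate number as a block in all birds, the turkey count was 2 and no other count of called carriers changed. The cause of these changes was not tested. No promoter windows or signal over background were used here, so the planned motif counts were not run.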
